A study of Mus musculus with 14 samples.

Results

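Lipid droplet coat and lipase genes are described here in the liver and kidney of mice given a normal or a high salt diet. The 10 genes, taken by symbol, were Plin2, Plin4, Plin5, Cidea, Cideb, Cidec, Pnpla2, Pnpla3, Lipe and G0s2. All 10 were listed among the 19660 genes of the liver count table and among the 20203 genes of the kidney table. Neutral fat is stored in cells as droplets covered by a layer of phospholipid and coat proteins. Perilipins sit on that surface and control the access of lipases, and CIDE proteins pass fat from smaller to larger droplets. Adipose triglyceride lipase, encoded by Pnpla2, opens the breakdown of triglyceride, and hormone-sensitive lipase, encoded by Lipe, acts after it. G0S2 inhibits adipose triglyceride lipase. PNPLA3 is a droplet protein of the same patatin family whose human gene is known for its link to fatty liver. In liver these proteins set how much fat hepatocytes store, burn or pass on to lipoproteins.

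The study asked how high salt acts on the human angiotensinogen gene and on gene expression in transgenic mice. All animals were 12 weeks old and male, and every group, controls included, carried the human angiotensinogen transgene with the -6A haplotype (labelled Hap -6A). Liver was sampled on the normal diet (4 libraries) and on high salt (4 libraries), and kidney on the normal diet (3 libraries) and on high salt (3 libraries). Mouse strain, the promoter of the transgene, the salt content and the time on the diet were not given in the sources used here. The labels do not say that each library is a separate animal, so the p-values measure the spread between these libraries, which may be technical.

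Liver libraries held 37267778 to 51487382 counts and kidney libraries 16046094 to 22004927. Markers of the labelled tissue were high. The 5 hepatocyte markers summed to 47984 to 104192 CPM (counts scaled to a common library size) in liver and 59.5 to 112 in kidney, and the 5 kidney tubule markers to 23534 to 58221 CPM in kidney and 0 to 43.4 in liver. Normal diet liver libraries 1 and 2 stood apart in the share of counts from the mitochondrial genome, 2.30% and 2.06%, against 11.3% to 29.6% in the other liver libraries. On high salt the liver columns are numbered 5 to 8, which matches no titled sample, and are called HS5 to HS8. HS5 and HS6 were closer to each other than any other pair of one diet, with a mean chi-square over genes of 1.59, where other pairs gave 9.85 to 62.7. Where a call or a direction among the members rests on these libraries, its value without them is given.

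Per kilobase of exon, the order of levels in normal diet liver ran from Cideb at 106 ± 19.2 CPM per kb (SD, n = 4) through Plin2 at 65.9 ± 27.9 and G0s2 at 24.4 ± 7.09 to Pnpla2 at 13.9 ± 4.30 and Plin5 at 12.2 ± 3.76. Next came Plin4 at 1.14 ± 1.22, Lipe at 1.00 ± 0.246 and Cidec at 0.679 ± 0.381 CPM per kb. Pnpla3 (0.0366 ± 0.0488) and Cidea (0.00533 ± 0.0107) were last. Ranges of neighbours in this order overlapped for Cideb and Plin2, for G0s2 and Pnpla2, for Pnpla2 and Plin5, for Plin4, Lipe and Cidec, and for the last pair. On high salt the order of the 10 was the same, and Pnpla3 stood at 0.753 ± 0.393 CPM per kb, beside Cidec at 0.819 ± 0.181. In normal diet kidney Cideb was again first, at 22.3 ± 8.998 CPM per kb (SD, n = 3), and G0s2 (11.8 ± 7.32), Pnpla2 (6.56 ± 3.15) and Plin2 (6.45 ± 1.73) followed with overlapping ranges. The other kidney members lay at or under 0.683 CPM per kb on the normal diet.

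Pnpla3 was the only member called between the diets in liver. It lies on chromosome 15 (GRCm38, chr15:84167837-84187236, plus strand) and was nearly silent on the normal diet. The 4 normal diet libraries held 0, 1, 1 and 7 counts, and HS5 to HS8 held 92.5, 84, 31 and 36. In CPM these were 0, 0.027, 0.031 and 0.168 on the normal diet, and 1.64, 1.74, 0.644 and 0.636 on high salt. Every high salt library was above every normal diet library, and HS5 and HS6, the close pair, were the highest. The group means were 0.0567 ± 0.0756 CPM and 1.17 ± 0.608 CPM (SD, n = 4 each). On the log2 scale Pnpla3 rose by 4.26 (SE 0.75, 95% interval 2.58 to 5.94), or 19.1-fold (edgeR quasi-likelihood test, Benjamini-Hochberg adjusted p = 0.0424). In bulk tissue, more cells of a type and more RNA per cell cannot be told apart.

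The direction of the Pnpla3 difference was the same in all 18 alternative settings that tested it, with log2 differences from 3.43 to 5.79, but its call was not. It passed the threshold in 10 settings and missed it in 8, with adjusted p from 3.41e-06 to 0.158. Leaving out normal diet library 1 (adjusted p = 0.0917) or 2 (0.0950), HS5 (0.150), HS6 (0.158) or HS8 (0.0937) ended the call. So did counting HS5 and HS6 as 1 library (log2 difference 4.05, adjusted p = 0.145) and leaving out normal diet libraries 1 and 2 together (3.43, adjusted p = 0.103). Normal diet libraries 3 and 4, which did not have the low mitochondrial shares, held 1 and 7 counts, below all 4 high salt libraries. The part of whatever sets libraries 1 and 2 apart in the Pnpla3 difference was not tested. Gm49513, a transcript on the same strand, shares 105 bases (6.78%) of Pnpla3 exons.

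Markers of hepatic stellate cells, which store retinyl esters in droplets, moved in the same direction as Pnpla3. The 6 markers summed to 78.99 to 147 CPM on the normal diet and 152 to 180 CPM on high salt. The largest part of this sum was Dcn, with means of 63.2 and 92.4 CPM. Between the diets Dcn and Reln did not overlap, nor did 12.5% of all genes tested, and the other markers overlapped. All 6 had log2 differences above 0 (median 0.57, against -0.02 over all genes), or 4 of 6 (median 0.51) without normal diet libraries 1 and 2. The edgeR test called 0 of 6, with 3 (Colec11, Dcn and Reln) at an unadjusted p under 0.05, and DESeq2 called 1. Over all 15130 genes tested, 21.2% had an unadjusted edgeR p under 0.05, and DESeq2 called 1122. Kidney tubule markers, 4 of 5 of which are in the liver table, summed to 0, 0, 4.97 and 0.120 CPM on the normal diet and 1.76, 2.01, 43.4 and 12.3 in HS5 to HS8. The diets overlapped in this sum. Of the other markers, those of hepatocytes were mixed and those of macrophages lay mostly below 0. Among hepatocyte markers 2 of 5 were above 0 and 3 below (median -0.15, or 0.46 without normal diet libraries 1 and 2), although their sum, most of it Alb, was 47984 to 76148 CPM on the normal diet and 86883 to 104192 on high salt. Among macrophage markers 1 of 6 was above 0 and 5 below (median -0.34), with sums of 108 to 198 and 76.8 to 147 CPM. Without normal diet libraries 1 and 2, 0 of these 6 were above 0 (median -0.71). The part of these cells in the Pnpla3 difference was not tested.

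The start of Pnpla3 is shown because it is the member that rose. Plin2 and Plin4 are shown as the most abundant perilipin and as the one that varied most between normal diet livers. Windows run from 250 bases before to 50 bases after the start (RefSeq, GRCm38.p6), 5′ to 3′ on the gene's own strand, with motif matches on either strand in capitals. Motifs searched were the E-box CACGTG, the nuclear receptor half-site AGGTCA, its direct repeat with 1 base between, the cAMP response element TGACGTCA, and the forkhead site GTAAACA.
Pnpla3, chr15:84167566-84167865, plus strand: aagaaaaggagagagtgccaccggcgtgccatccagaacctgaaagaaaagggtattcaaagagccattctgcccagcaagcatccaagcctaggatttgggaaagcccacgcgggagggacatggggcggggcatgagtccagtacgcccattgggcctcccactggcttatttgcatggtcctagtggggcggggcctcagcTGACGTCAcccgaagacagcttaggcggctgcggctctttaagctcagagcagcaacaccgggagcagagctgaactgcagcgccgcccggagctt
Plin2, chr4:86670010-86670309, minus strand: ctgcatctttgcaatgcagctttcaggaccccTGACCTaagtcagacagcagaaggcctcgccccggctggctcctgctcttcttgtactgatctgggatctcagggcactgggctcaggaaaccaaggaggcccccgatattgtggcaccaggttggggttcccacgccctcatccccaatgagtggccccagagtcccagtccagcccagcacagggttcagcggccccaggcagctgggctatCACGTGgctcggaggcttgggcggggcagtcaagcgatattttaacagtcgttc
Plin4, chr17:56109733-56110032, minus strand: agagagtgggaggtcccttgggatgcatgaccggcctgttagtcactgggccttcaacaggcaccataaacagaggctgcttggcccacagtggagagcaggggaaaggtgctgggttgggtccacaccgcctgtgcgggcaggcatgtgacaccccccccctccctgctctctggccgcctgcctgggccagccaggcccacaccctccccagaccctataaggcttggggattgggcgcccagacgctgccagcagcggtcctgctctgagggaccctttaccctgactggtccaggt
The Pnpla3 window held a cAMP response element at bases 205 to 212, 46 bases before the start. Of all 32851 windows, 1.79% held that motif. Plin2 held an E-box at bases 247 to 252, across its start, a motif found in 7.15% of windows, and a half-site at bases 33 to 38, found in 16.3%. Plin4 held none of these letters. A window was found for 9 of the 10 members (12 windows), and the direct repeat, held by 0.04% of all windows, was in none of these. Lipe held an E-box in one window and a forkhead site (3.65% of windows) in another, and Plin5 held a half-site in each of its windows. These matches are descriptions of letters and do not show binding.

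**Figure D1:**
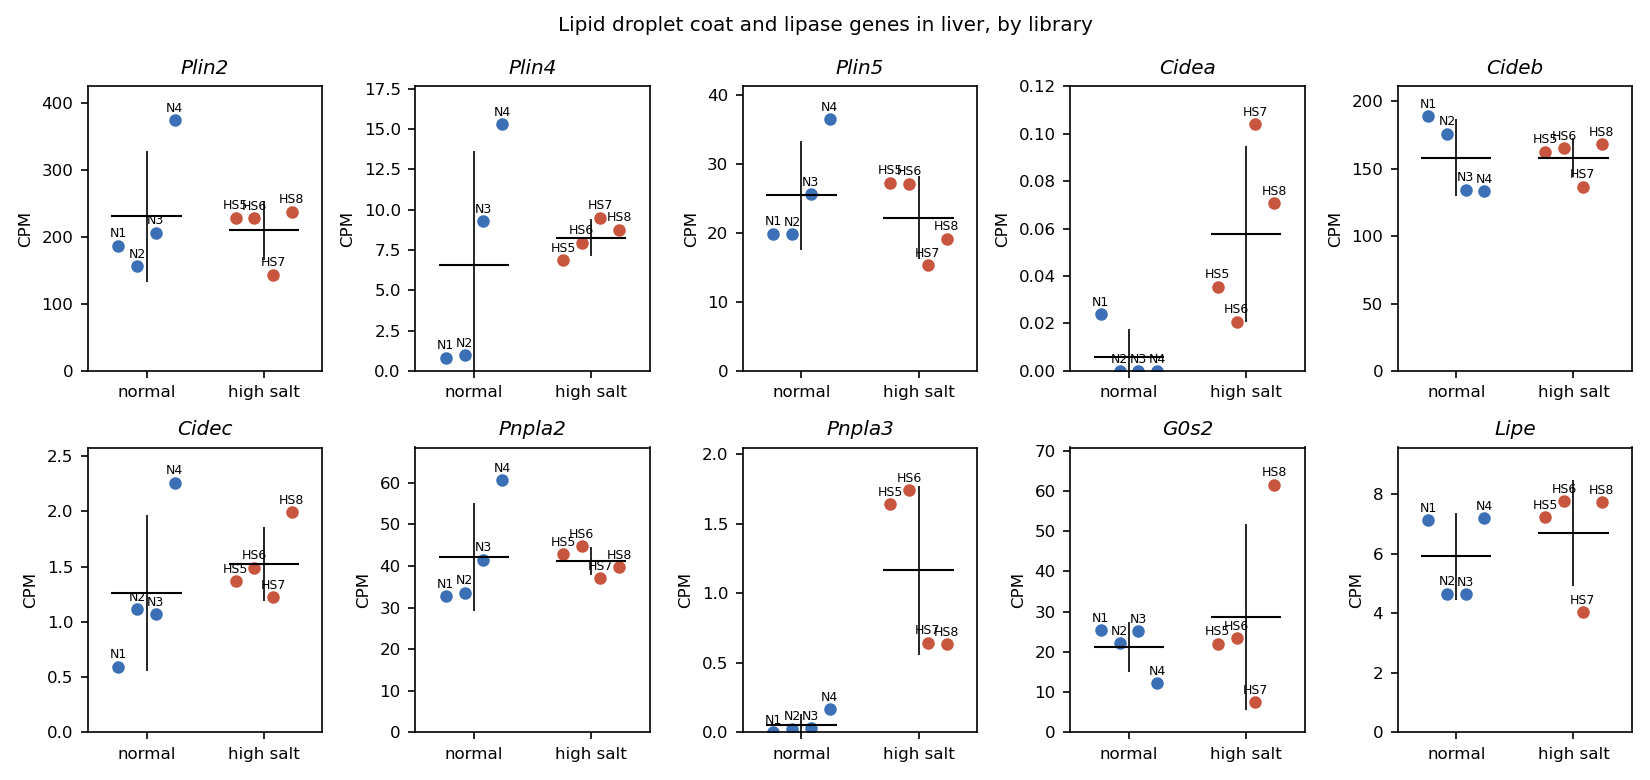
CPM of each member in the 8 liver libraries, by diet. Pnpla3 is the member whose 4 high salt libraries all lie above its 4 normal diet libraries, and Plin4 has its lowest values in normal diet libraries 1 and 2.

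Over all members, 9 of 10 passed the filter on low counts in liver, 1 of these was called, and 8 were not. Of all 15130 genes tested 1.00% were called (0.595% higher, 0.410% lower), and 21.2% had an unadjusted p under 0.05, against 1 of 9 members. Pnpla3 passed the filter through its high salt libraries. Its groups did not overlap, nor did those of 12.5% of all genes tested (6.42% higher, 6.03% lower on high salt), and the groups of the other 8 members overlapped. The median log2 difference of the tested members was 0.18, with 6 above 0, against -0.02 over all genes.

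The other lipases and the lipase inhibitor were not called in liver. Pnpla2, on chromosome 7, measured 32.7, 33.6, 41.5 and 60.7 CPM on the normal diet and 42.9, 44.8, 37.1 and 39.7 on high salt. The high salt values lay within the range of the normal diet values, and the log2 difference was -0.03 (95% interval -0.49 to 0.42, edgeR adjusted p = 0.939). Lipe measured 7.13, 4.66, 4.65 and 7.20 CPM against 7.24, 7.76, 4.03 and 7.74. HS7 was the lowest of all 8 libraries, and the log2 difference was 0.18 (95% interval -0.40 to 0.76, edgeR adjusted p = 0.716). An antisense transcript, 4732471J01Rik, covers 15.6% of Lipe exons, and the counting is not stated to use strand.

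G0s2, the inhibitor, varied more between high salt livers than between the diets. It measured 25.4, 22.2, 25.2 and 12.3 CPM on the normal diet and 22.0, 23.3, 7.48 and 61.5 on high salt. HS8 was the highest and HS7 the lowest of all 8 libraries. The log2 difference was 0.43 (SE 0.51, 95% interval -0.72 to 1.58, edgeR adjusted p = 0.651), and without HS8 it was -0.27.

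**Figure D2:**
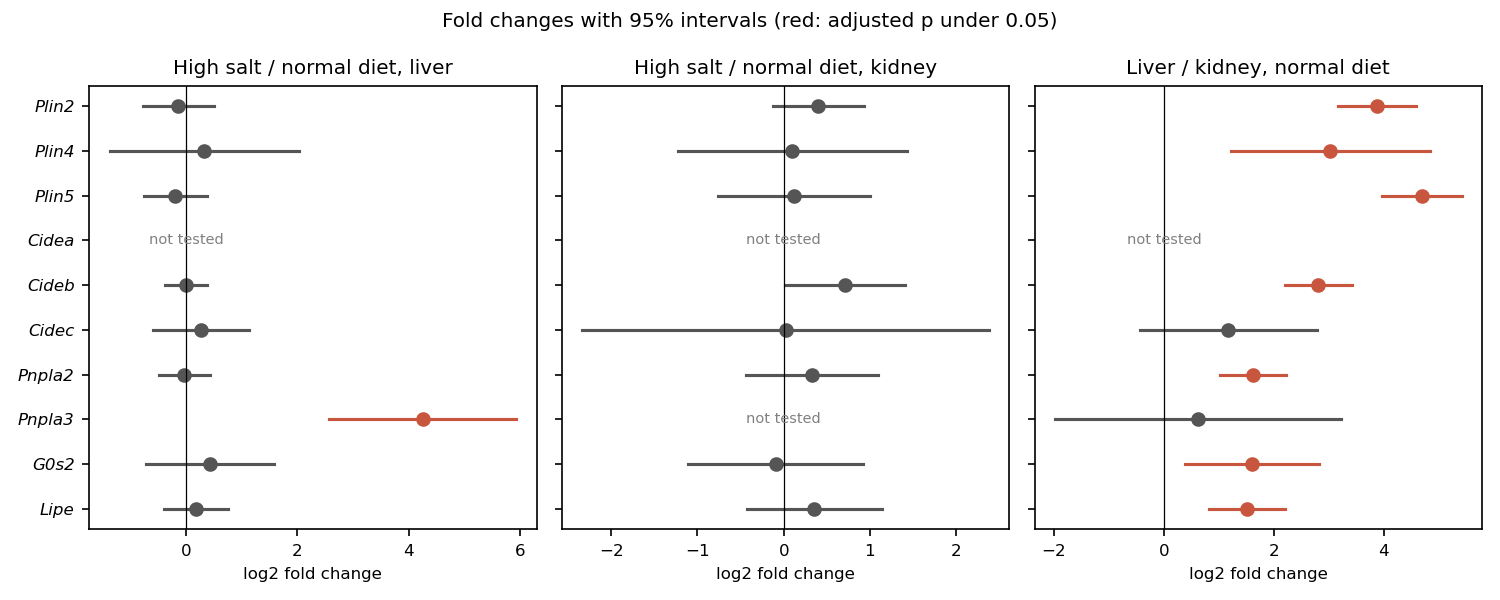
Log2 difference between high salt and normal diet for each tested member, in liver and in kidney, with 95% intervals from the edgeR fits. The last panel gives liver against kidney on the normal diet. In liver the Pnpla3 interval, 2.58 to 5.94, lies above 0 and the intervals of the other 8 tested members span 0.

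Among the perilipins, Plin2, the droplet coat found in most cell types, was abundant and not called. It measured 187, 157, 206 and 375 CPM on the normal diet and 229, 229, 144 and 238 on high salt. Normal diet library 4 was the highest and HS7 the lowest. The means were 231 ± 97.9 CPM and 210.0 ± 44.1 CPM (SD, n = 4 each), with a log2 difference of -0.14 (95% interval -0.78 to 0.50, edgeR adjusted p = 0.802). Without normal diet library 4 the difference was 0.18.

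Plin5, a perilipin of fat-oxidising tissues that tethers droplets to mitochondria, measured 19.9, 19.8, 25.6 and 36.4 CPM on the normal diet and 27.2, 27.1, 15.3 and 19.1 on high salt. Library 4 was again the highest and the diets overlapped, with a log2 difference of -0.20 (95% interval -0.76 to 0.37, edgeR adjusted p = 0.678). The same normal diet library was also the highest of all 8 in Plin4, Cidec and Pnpla2.

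Plin4, a perilipin that coats small new droplets, split the normal diet livers. Libraries 1 and 2 measured 0.832 and 0.981 CPM and libraries 3 and 4 measured 9.28 and 15.3. High salt livers lay between the low pair and library 4, at 6.87, 7.96, 9.50 and 8.76 CPM. The low pair are the libraries with mitochondrial shares of 2.30% and 2.06%, and the part of whatever sets them apart was not tested. Over all 8 libraries the log2 difference was 0.33 (SE 0.76, 95% interval -1.38 to 2.03, edgeR adjusted p = 0.832). It was -0.57 without libraries 1 and 2 (adjusted p = 0.268) and 1.17 without library 4.

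Plin5 lies 1797 bases from Plin4 on the same strand of chromosome 17. In libraries 1 and 2 Plin5 measured 19.9 and 19.8 CPM, values that lay inside its high salt range of 15.3 to 27.2 CPM. Plin4 in these libraries lay below its high salt range of 6.87 to 9.50 CPM.

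**Figure D3:**
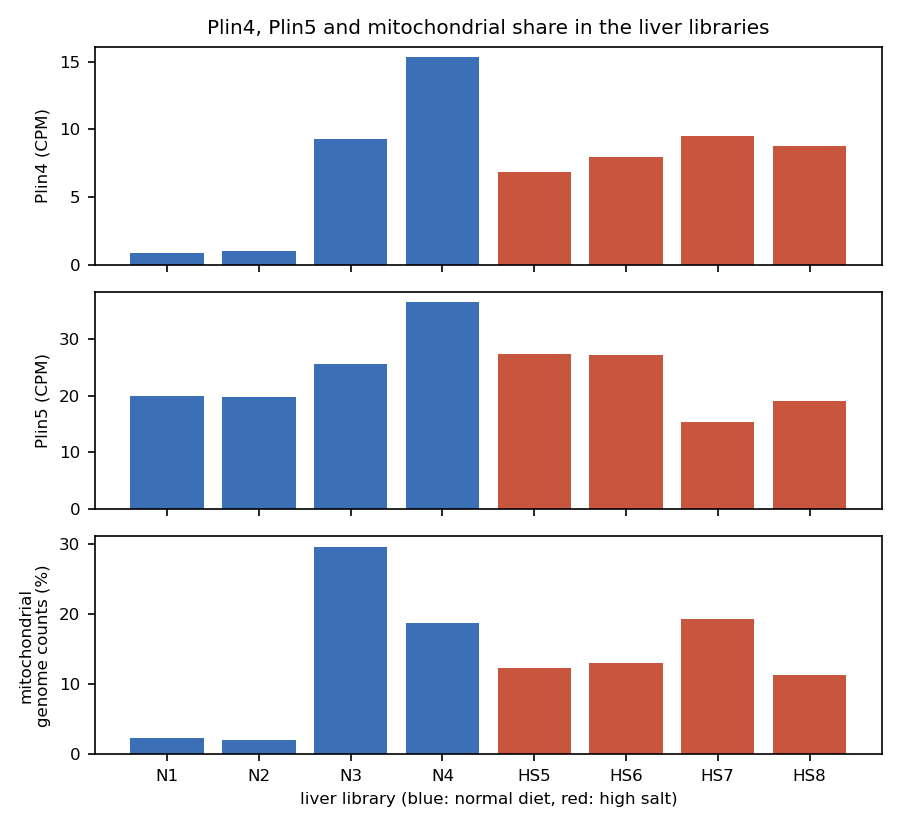
Plin4 CPM in each liver library beside the mitochondrial share of that library's counts in percent. Normal diet libraries 1 and 2 have the lowest values of both measures, and libraries 3 and 4 hold 9.28 and 15.3 CPM.

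The CIDE genes were not called in liver. Cideb, the member of the family known from hepatocytes and lipoprotein loading, measured 189, 176, 135 and 133 CPM on the normal diet and 163, 165, 137 and 168 on high salt. The means were 158 ± 28.6 CPM and 158 ± 14.5 CPM (SD, n = 4 each), and the 95% interval of the log2 difference was -0.38 to 0.38 (edgeR adjusted p = 0.9997). Nop9 on the opposite strand shares 1136 bases, 76.3% of Cideb exons, so Cideb counts are uncertain. Nop9 itself was not called in liver (log2 difference -0.10).

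Cidec, the fat cell CIDE protein that also appears in fatty liver, measured 0.594, 1.12, 1.07 and 2.26 CPM on the normal diet and 1.37, 1.49, 1.23 and 2.00 on high salt. The diets overlapped, with a log2 difference of 0.27 (95% interval -0.59 to 1.13, edgeR adjusted p = 0.710). Cidea, best known from brown fat, was near the floor. It held 1, 0, 0 and 0 counts on the normal diet and 2, 1, 5 and 4 on high salt, and a library at 0 is only known to lie under 3 counts. It did not pass the filter, and with no filter its adjusted p was 0.220.

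In kidney no member was called. Of the 10 members 8 passed the filter, Cidea and Pnpla3 did not, and 0 of 8 were called by edgeR, by DESeq2 or by limma on the deposited normalized values. The share of all 15847 genes called by edgeR was 0%, with 2.01% (318 genes) at an unadjusted p under 0.05, and DESeq2 called 11 genes. Without normal diet library 1 there were 2627 genes at an unadjusted p under 0.05, 5 of 9 members among them, and still 0 called. No member's diets were apart without overlap, against 6.88% of all genes tested (3.84% higher, 3.04% lower). The median log2 difference of the tested members was 0.22, with 7 of 8 above 0, against -0.02 over all genes.

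Cideb had the lowest p of the 8 tested members in kidney. It measured 48.6, 25.0 and 25.9 CPM on the normal diet and 56.8, 42.7 and 63.3 on high salt. The second high salt library lay below the first normal diet library, so the groups overlapped. The log2 difference was 0.71 (95% interval 0.01 to 1.41, edgeR unadjusted p = 0.0467, adjusted p = 0.9996). Without normal diet library 1 it was 1.09 (adjusted p = 0.124). Nop9, which shares its exons, had a difference of 0.36.

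Plin2 measured 29.6, 19.8 and 18.5 CPM in kidney on the normal diet and 32.4, 26.5 and 30.9 on high salt. Only the first normal diet library reached the high salt range, and the log2 difference was 0.40 (95% interval -0.12 to 0.93, edgeR adjusted p = 0.9996). Pnpla2 measured 30.5, 16.6 and 12.3 CPM against 28.1, 20.4 and 26.0. Lipe measured 4.29, 2.58 and 2.18 CPM against 5.02, 3.34 and 3.23. In both lipases the first normal diet library was the high one of its group. Without that library the log2 differences were 0.65 for Plin2, 0.79 for Pnpla2 (0.33 with it) and 0.71 for Lipe (0.36 with it), with edgeR adjusted p of 0.215, 0.220 and 0.2995. G0s2 measured 4.15, 16.9 and 9.83 CPM against 9.69, 8.003 and 11.1, with that first library the lowest. Plin5 stayed between 0.823 and 1.76 CPM in all 6 libraries.

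**Figure D4:**
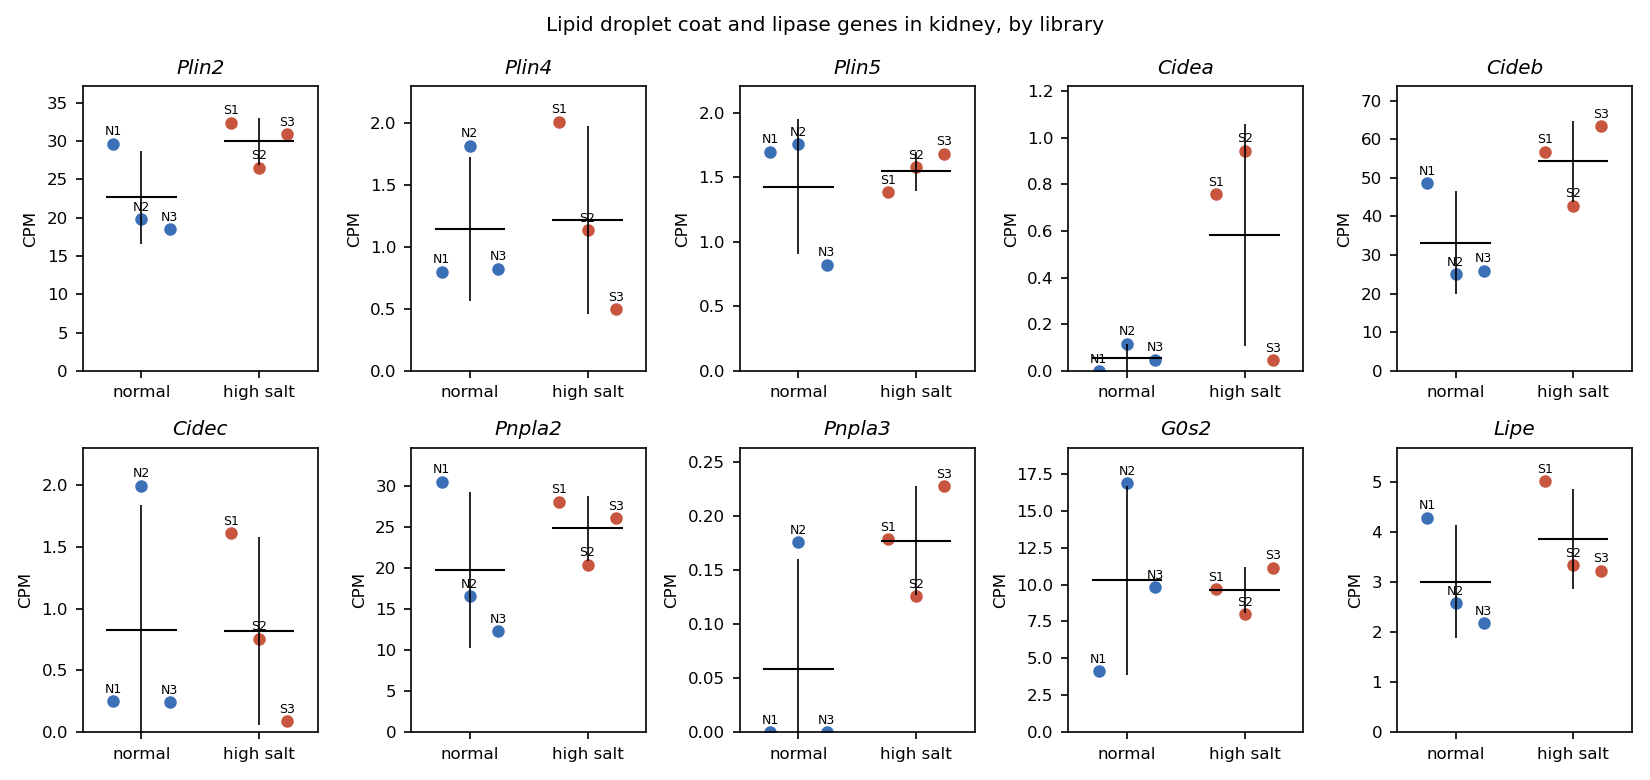
CPM of each member in the 6 kidney libraries, by diet. The diets overlap for every member, and Cidec, Plin4 and Cidea differ strongly between libraries of one diet.

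Cidec and Plin4 varied between kidney libraries together with fat cell markers, and Cidea did so only in part. Cidec measured 0.250, 1.99 and 0.242 CPM on the normal diet and 1.61, 0.756 and 0.091 on high salt. Plin4 measured 0.799, 1.82 and 0.823 CPM against 2.01, 1.13 and 0.500. In both genes normal library 2 and high salt library 1 were the highest of their groups. All 8 fat cell markers were in the kidney table, and they summed to 2.75, 14.2 and 1.65 CPM on the normal diet and 14.3, 7.69 and 1.18 on high salt.

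The same 2 libraries led in these markers. Adipoq, the fat cell hormone adiponectin, measured 0.90, 5.15 and 0.48 CPM against 4.15, 1.89 and 0.36. Plin1, the perilipin of fat cells, was at 0 in the third library of each diet and reached 1.52 CPM in normal library 2. Cidea held 0, 2 and 1 counts on the normal diet and 17, 15 and 1 on high salt. It was thus low in normal library 2, whose marker sum was 14.2 CPM. Ucp1, the uncoupling protein of brown fat, was at 0 in all 3 normal diet kidneys and measured 1.43, 1.13 and 0.14 CPM on high salt, again highest in libraries 1 and 2. The part of fat tissue in these values was not tested. The Cidec log2 difference in kidney was 0.02 over all libraries, 1.71 without normal library 2 and -0.995 without high salt library 1. Liver listed 2 of the 8 fat cell markers, Adrb3 and Cfd, and their sum overlapped between the diets at 1.65 to 7.52 and 1.72 to 7.66 CPM. Adrb3 ran from 1.63 to 7.50 CPM on the normal diet and from 1.63 to 4.32 on high salt, so its highest library was not HS8. Cfd, a serum protease made by fat cells, measured 3.99 CPM in HS8, the library with the highest G0s2, and 0 to 0.312 in the other 7 liver libraries. Its part in the G0s2 value was not tested.

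**Figure D5:**
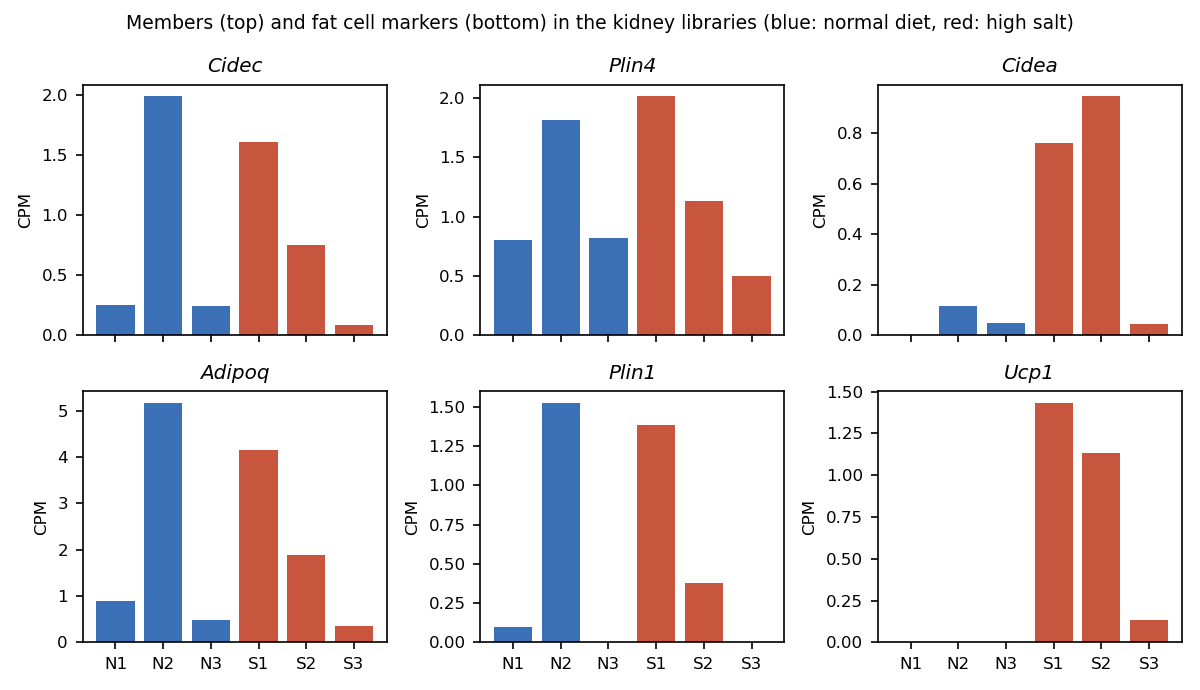
CPM of Cidec, Plin4 and Cidea in the 6 kidney libraries beside the fat cell markers Adipoq, Plin1 and Ucp1. The sum of all 8 fat cell markers, not drawn, was highest in normal diet library 2 (14.2 CPM) and in high salt libraries 1 (14.3) and 2 (7.69).

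Pnpla3 in kidney held 0, 3 and 0 counts on the normal diet and 4, 2 and 5 on high salt, too few to pass the filter. With no filter its log2 difference was 1.62 (SE 1.23, edgeR unadjusted p = 0.219), so a diet difference in kidney was not shown. An interaction of tissue and diet was tested over the 17600 genes in both tables. Of 16633 genes tested 0% were called by edgeR, 1681 had an unadjusted p under 0.05 and DESeq2 called 145. Of the 9 members tested 0 were called by either tool, and 0 had an unadjusted p under 0.05. For Pnpla3 the difference of the log2 effects, liver minus kidney, was 2.60 (95% interval -1.01 to 6.20, edgeR adjusted p = 0.612), so a difference between the tissues was not shown. For Cideb it was -0.71 (95% interval -1.49 to 0.07, adjusted p = 0.526).

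On the normal diet 9 of 9 tested members had a log2 difference above 0 between liver and kidney, against 50.5% of all genes. Among the members 7 were called higher in liver and 0 were called lower. Of all 16633 genes 65.1% were called in this comparison, 32.9% higher in liver and 32.2% lower. Each tissue has a table of its own, so tissue and quantification run cannot be told apart. The median log2 difference of the members was 1.62, against 0.02 over all genes.

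The perilipins and Cideb had the largest differences between the tissues with all libraries. On the log2 scale Plin5 was higher in liver by 4.69 (SE 0.34), Plin2 by 3.88 (SE 0.33) and Plin4 by 3.03 (SE 0.85), with edgeR adjusted p of 1.61e-08, 9.59e-08 and 0.00579. Plin4 passed the threshold in all 22 alternatives, at 2.21 (without normal diet liver library 4) to 3.93 (without libraries 1 and 2). Its values in liver libraries 1 and 2, 0.832 and 0.981 CPM, lay within its normal diet kidney range of 0.799 to 1.82. Cideb had 2.80 (SE 0.29, adjusted p = 6.12e-07), and Nop9 was higher in liver by 2.32. The lipases were closer, with Pnpla2 at 1.62 (SE 0.28, adjusted p = 0.000145) and Lipe at 1.51 (SE 0.32, adjusted p = 0.000792). G0s2 was higher by 1.60 (SE 0.57, adjusted p = 0.0223). Its call was lost with upper quartile scaling (1.29), without normal diet kidney library 1 (1.23) or 3 (1.59), and without normal diet liver libraries 1 and 2 (1.36). Cidec, at 1.17 (adjusted p = 0.188), was called in 1 alternative, without normal diet kidney library 2 (2.86, adjusted p = 0.00907), the library with the high fat cell markers. Pnpla3 had a difference of 0.62 (95% interval -1.98 to 3.23, adjusted p = 0.669).

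Among the other lipases and their cofactors 19 of 20 genes were tested in liver, and 1 was called, against 1.00% of all 15130 genes tested. Ddhd2, a phospholipase and triglyceride lipase, measured 9.94, 10.4, 15.5 and 13.6 CPM on the normal diet and 30.1, 27.2, 23.2 and 20.8 on high salt. The diets did not overlap, nor did they in 12.5% of all genes tested (6.42% higher on high salt). The means were 12.4 ± 2.67 and 25.4 ± 4.13 CPM (SD, n = 4 each), and Ddhd2 rose by 1.03 on the log2 scale (SE 0.19, edgeR adjusted p = 0.0440). It passed the threshold in 11 of 19 alternatives. The call was lost without normal diet library 1 (adjusted p = 0.107) or 2 (0.104), without HS5 (0.171), HS6 (0.182), HS7 (0.0552) or HS8 (0.102), with HS5 and HS6 as 1 library (0.176) and without both low mitochondrial libraries (0.110). In kidney Ddhd2 measured 8.79 ± 1.21 and 7.87 ± 0.401 CPM (SD, n = 3 each). The gene of this list not tested in liver, Pnpla5, held 2 counts over the 4 normal diet libraries and 62 over the 4 high salt libraries. Its values were 0 to 0.0481 and 0.146 to 0.352 CPM, without overlap.

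Other lipid droplet genes (coats, seipin, FIT proteins and droplet enzymes) had 19 of 20 tested in liver, with 0 called by edgeR and a median log2 difference of -0.01. Of these 3 had an unadjusted p under 0.05, Cavin1 (log2 difference 1.05), Cav1 (0.84) and Aup1 (-0.49), and DESeq2 called 1. Without normal diet libraries 1 and 2 the differences were 0.64, 0.86 and -0.27, and 14 of 19 genes were above 0 where 9 were with all libraries. Of the 12 regulators all were tested in liver and 0 were called by edgeR, with 9 above 0 and a median of 0.42. Among them 3 had an unadjusted p under 0.05, and DESeq2 called 2. For both lists the share over all 15130 genes tested was 21.2% at an unadjusted edgeR p under 0.05, and DESeq2 called 1122 genes. Pparg, the nuclear receptor that drives fat storage genes, had a log2 difference of 0.94 (edgeR adjusted p = 0.0827). Creb3l3, a factor of liver lipid metabolism, had -0.57 (adjusted p = 0.103), and Nr1h3, the sterol sensor LXR alpha, had -0.69 (adjusted p = 0.143). Without normal diet libraries 1 and 2 these were 1.26, -0.55 and -0.27, and with HS5 and HS6 summed 0.88, -0.58 and -0.71. The diets did not overlap for Pparg, Creb3l3, Cavin1, Cav1 and Aup1, nor for 12.5% of all genes tested, and overlapped for Nr1h3. These regulators and the named caveolar and droplet genes were named after their values were seen. In kidney 0 of 18 other droplet genes, 0 of 17 other lipases and 0 of 11 regulators were called by edgeR or DESeq2, and 0 had an unadjusted p under 0.05, with median log2 differences of 0.08, -0.05 and -0.08.

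The genes whose liver values were most like those of Pnpla3 were sought among 12184 genes with a mean of at least 50 counts, by Pearson correlation over the 8 liver libraries. The 5 nearest were 2310022B05Rik (r = 0.990), Actn1 (0.985), Iffo2 (0.982), Fmo4 (0.979) and Cmip (0.974). These libraries share the diet groups and their depth, and the r values were selected as the highest, so they are a description. Their own log2 differences between the diets were 0.79 to 1.47, below the 4.26 of Pnpla3.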

How the data were processed

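RNA of liver and kidney was sequenced from mRNA libraries, per the labels. The unit of the deposited count tables is the expected count per gene, from an expectation-maximisation step in Partek, per the file headers. Partek 7.0, STAR 2.5.3a, DESeq2 and mm10 are named in the submitters' processing notes with no role. A second pair of deposited tables holds a linear normalized signal, and how the authors scaled it is not given in the sources used here. Every gene in the count tables had a total of at least 10 counts.

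Samples were grouped by tissue and diet from the labels. Column names of the high salt livers give their diet and no titled sample, and these libraries were used as replicates without a number. The members and gene lists were chosen with earlier results of these data known. The text names all 10 members, and list genes past the threshold over all genes, up to 5 per list and tissue. List genes at an unadjusted p under 0.05 in liver, the untested Pnpla5, and Alb, Adrb3, Adipoq, Plin1, Ucp1 and Cfd as markers, were named in addition after their values were seen.

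Rounded expected counts were fitted by tissue with edgeR 4.0.16 in R 4.3.3, using TMM scaling, filterByExpr and the quasi-likelihood test. The interaction and the tissue difference came from 1 fit of all libraries. Benjamini-Hochberg adjusted p-values under 0.05 over all genes tested were called. CPM use TMM library sizes. The fits were tested on simulated counts. Replicate spread limits most genes (biological coefficient of variation 0.314 in liver, 0.30 in kidney). A count of 0 allows up to 3 counts. This floor covers counting error only, since reads carry no molecular identifiers. Exon lengths, positions and overlaps come from GENCODE M21 (GRCm38).

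As alternatives, scaling was changed to RLE or upper quartile, the test to DESeq2 1.42.0 or to limma 3.58.1 on the log2 of the normalized values plus 1 or 0.1, and the filter to none or to 10 counts in every library. Mitochondrial genes, each library in turn, or normal diet liver libraries 1 and 2 were left out. HS5 and HS6 were summed, all libraries were fitted together, a replicate block was used in kidney, and CPM were taken from plain library totals.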

Additional observations from a re-analysis of the deposited data

Results flagged for a closer look

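Of 20 liver groups of 4 libraries, 3 held a library far from the other 3 of its group, where chance gives about 1. Plin2 in HS7 measured 144 CPM, below the other high salt livers at 229 to 238. Lipe in the same library measured 4.03 CPM, below the others at 7.24 to 7.76. Cidea in normal diet liver library 1 measured 0.0238 CPM, which is 1 count beside 3 libraries at 0.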

How the results depend on the processing

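Liver calls between the diets depended on the setting. Genes called, 152 in the report, were 1122 with DESeq2, 12 with HS5 and HS6 summed, 52 without normal diet libraries 1 and 2, 260 with all libraries in 1 fit, and 12 to 765 with 1 library left out (39, 41, 765 and 409 without normal diet libraries 1 to 4, and 18, 12, 120 and 32 without HS5 to HS8). Members called were 0 with at least 10 counts in every library, where Pnpla3 is not tested, with HS5 and HS6 summed, without normal diet libraries 1 and 2 and with limma plus 0.1 (Pnpla3 log2 difference 5.38), and 0 to 1 with 1 library left out. In kidney DESeq2 called 11 genes. Interaction calls were 145 with DESeq2, 2 with at least 10 counts in every library, 1 without normal diet liver libraries 1 and 2, and 0 to 7 with 1 library left out. Apart from Pnpla3 in liver and G0s2 and Cidec between the tissues, no member changed its side of the threshold under any alternative. The cause was not tested.

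Directions turned only for values that were not called. Cideb in liver turned below 0 with RLE, with DESeq2, with no filter and with mitochondrial genes left out (-0.0074, -0.0074, -0.010 and -0.0068), -0.019 with HS5 and HS6 summed and -0.0017 with all libraries in 1 fit. Cidec in kidney was -0.013 with DESeq2. Without normal diet liver libraries 1 and 2, Cidec was -0.14 and Plin4 -0.57 in liver, and their interactions -0.10 and -0.62. In kidney limma gave Plin4 -0.062 and G0s2 0.060 with a pseudocount of 1, and -0.070 and 0.062 with 0.1. With 1 library left out, liver values ran from -0.086 to 0.088 for Cideb, -0.27 to 0.73 for G0s2, -0.29 to 0.18 for Plin2, -0.047 to 1.17 for Plin4, -0.31 to 0.019 for Plin5 and -0.14 to 0.18 for Pnpla2. Kidney values ran from -0.995 to 1.71 for Cidec, -0.47 to 0.46 for G0s2, -0.50 to 0.58 for Plin4 and -0.16 to 0.29 for Plin5. Interactions ran from -1.42 to 1.30 for Cidec, -0.17 to 0.90 for G0s2, -0.51 to 0.074 for Lipe, -0.20 to 1.09 for Plin4 and -1.02 to 4.07 for Pnpla3. Pnpla3 between the tissues ran from -0.86 to 4.25. Upper quartile scaling moved the median of all genes between the tissues to -0.28. Plain library totals gave 176 CPM for Cideb and 45.5 CPM for Pnpla2 on high salt in liver.

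Kidney samples of the same number had correlations of 0.41, 0.37 and -0.09 between their deviations from the group means, so the numbers were not taken to pair them. With the replicate block 0 genes and 0 members were called, G0s2 was 0.097 and Cideb 0.76. No paired analysis was possible in liver because the high salt columns carry no titled number. Pnpla3 and Cidea in kidney are limited by low counts, with at most 5 and 17 in a library.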
